A study of Rattus norvegicus with 6 samples.

Results

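SR proteins and heterogeneous nuclear ribonucleoproteins (hnRNPs) were followed in 2 kinds of rat hippocampal culture, astrocytes and neurons, exposed to insulin. The members are the rows of the deposited expression table whose symbol starts with Srsf or Hnrnp, without rows named as pseudogenes. They were 30 of 37185 rows and carried 29 symbols. There were 12 SR rows with 11 symbols, since Srsf5 had 2 rows, and 18 hnRNP rows. The rule left out 1 pseudogene row, which was blank in every library. RNA was extracted from primary cultures, depleted of ribosomal RNA and sequenced as stranded total RNA, per the labels' protocols. Each culture had 3 libraries, a control and cultures exposed to 200 nM insulin for 6 h and 12 h, so that each of the 6 groups was 1 library. The control is called saline in the titles and untreated at 0 min in the characteristics. Before treatment all cultures, controls included, spent 4 h in changed medium. For astrocytes this held 5 mM glucose and 2% FBS, and for neurons neither serum nor insulin. Hours in that medium therefore differ between the insulin and control libraries, and insulin and time cannot be told apart. The stated subject of the series is the regulation of brain lipid metabolism by insulin.

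SR proteins carry RNA recognition motifs and a tail rich in arginine and serine. They bind exonic enhancers and help the spliceosome to recognise exons, and CLK and SRPK kinases phosphorylate their tails. The hnRNPs coat nascent transcripts and often repress exons, and several also act in RNA export, stability or translation. Many genes of both families limit their own expression through alternative exons that send the transcript to nonsense-mediated decay. In the rat, Srsf5 was first described as HRS, a gene induced in regenerating liver and in insulin-treated hepatoma cells. The deposited values give 1 level per row, so productive and decay-prone transcripts of a gene are not separated here.

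Values are log2 FPKM, quantile-normalised by the authors, or FPKM recovered from them. FPKM counts fragments relative to transcript length and library size. A difference is the log2 value of 1 library minus that of another. Rows were compared where neither library was blank and 1 or both reached 1 FPKM. A row was counted as higher or lower at a 2-fold difference, which is 1 on the log2 scale. With 1 library per group there is no replicate error, so nothing was tested, and every difference is between single libraries. Of the 30 rows, 28 entered every comparison. Srsf12 and Hnrnpr stayed below 1 FPKM in all libraries. Srsf4 was at 0.944 FPKM in the astrocyte control and Hnrnpll at 0.984 FPKM in the neuron control, so these passed the minimum through the other library. Levels of a culture are listed in time order, at 0 h (the control), 6 h and 12 h of insulin. Sequencing depth is unknown, because no read counts were used. The symbols with a value numbered 22891, 23814 and 23898 at 0 h, 6 h and 12 h in astrocyte cultures, and 23927, 25510 and 25528 in neuron cultures. The columns share their quantiles over the rows with a value. The median difference of all rows entered was above 0 in each insulin comparison, at 0.09 and 0.10 at 6 h and 12 h in astrocyte cultures, and 0.14 and 0.14 in neuron cultures. Member differences are therefore read beside these medians.

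The culture labels were checked against marker genes. None of the 10 astrocyte markers was higher in the astrocyte control than in the neuron control, and their summed level was 33.2 FPKM there, against 369 FPKM in the neuron control. Fibroblast and smooth muscle markers summed to 488 FPKM in the astrocyte control, against 4.37 FPKM in the neuron control. Neuron markers summed to 4.20 FPKM in the astrocyte control, against 67.8 FPKM in the neuron control. Oligodendrocyte lineage markers summed to 3.95 FPKM in the astrocyte control, against 117 FPKM in the neuron control. Most of the neuron control sum was Olig1 (80.6 FPKM) and Olig2 (25.9 FPKM), while Mbp was at 1.05 FPKM there. The 2 markers of this list that went the other way were Mog and Cspg4. They were at 2.21 and 1.32 FPKM in the astrocyte control, against 1.69 and 0.397 FPKM in the neuron control. Slc17a7, which marks excitatory neurons, was at 0.00241 FPKM in the neuron control. The names astrocyte and neuron cultures below are those of the labels only. Between control and insulin libraries the astrocyte marker sum ranged from 31.6 to 37.7 FPKM in astrocyte cultures and from 345 to 383 FPKM in neuron cultures. Single markers within a sum moved in opposite directions. At 0 h, 6 h and 12 h in neuron cultures Gfap was at 96.7, 109 and 134 FPKM and Glul at 106, 106 and 77.7 FPKM. Of the neuron markers there, Tubb3 was at 30, 32.5 and 33.7 FPKM and Nefl at 14.7, 13.7 and 7.33 FPKM. The fibroblast and smooth muscle sum was 488, 502 and 587 FPKM at 0 h, 6 h and 12 h in astrocyte cultures, and 4.37, 6.56 and 10.4 FPKM in neuron cultures. Most of this sum was Tagln, at 353, 372 and 417 FPKM in astrocyte cultures. In neuron cultures nearly all of it was Tagln, at 4.35, 6.53 and 10.3 FPKM. The part of cell composition in the differences below was not tested. Microglia markers summed to at most 0.252 FPKM and endothelial markers to at most 0.0231 FPKM in any library. In bulk RNA, fewer cells of a type and less RNA per cell cannot be told apart.

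The family was expressed broadly in both cultures. Of the 30 rows, 27 reached 1 FPKM in each control library and 28 in each insulin library. Srsf2, an SR protein of nuclear speckles that also acts in transcription elongation, had the highest mean level. It was at 36.1, 46.8 and 50.9 FPKM at 0 h, 6 h and 12 h in astrocyte cultures. In neuron cultures it was at 26.4, 42.8 and 46.9 FPKM, so that each control was the lowest library of its culture. Srsf1, the prototype SR protein, followed at 24.1, 27.7 and 36.3 FPKM in astrocyte cultures. In neuron cultures Srsf1 was at 24.1, 45.4 and 46.0 FPKM. The 2 controls were nearly equal for this gene, and both neuron insulin libraries stood above all 3 astrocyte ones. Hnrnpa2b1, whose protein sorts RNA into neurites and other processes, led the hnRNPs at 23.3, 24.1 and 29.7 FPKM in astrocyte cultures and 21.6, 26.5 and 26.5 FPKM in neuron cultures.

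At the low end, Srsf12 was at 0.0277, 0.0390 and 0.0246 FPKM in astrocyte cultures and at 0.155, 0.233 and 0.260 FPKM in neuron cultures. Its range over the 6 libraries, 3.40 on the log2 scale, was the widest of the family, and its neuron libraries all lay above its astrocyte ones. Hnrnpul1 had the narrowest range, 0.27. Summed over the 12 SR rows the level was 111.6, 139 and 165 FPKM at 0 h, 6 h and 12 h in astrocyte cultures, and 109, 172 and 165 FPKM in neuron cultures. The 18 hnRNP rows summed to 160.1, 167 and 201 FPKM in astrocyte cultures and 159, 210.2 and 212 FPKM in neuron cultures. Both sums were lowest in the control of each culture, without correction for the all-row medians of 0.09 to 0.14. RefSeq lists 51 pseudogenes named after Hnrnpa1, 10 after Srsf3 and 7 each after Srsf7 and Hnrnpk, so reads of these genes may be shared with copies and their levels are uncertain.

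**Figure D1:**
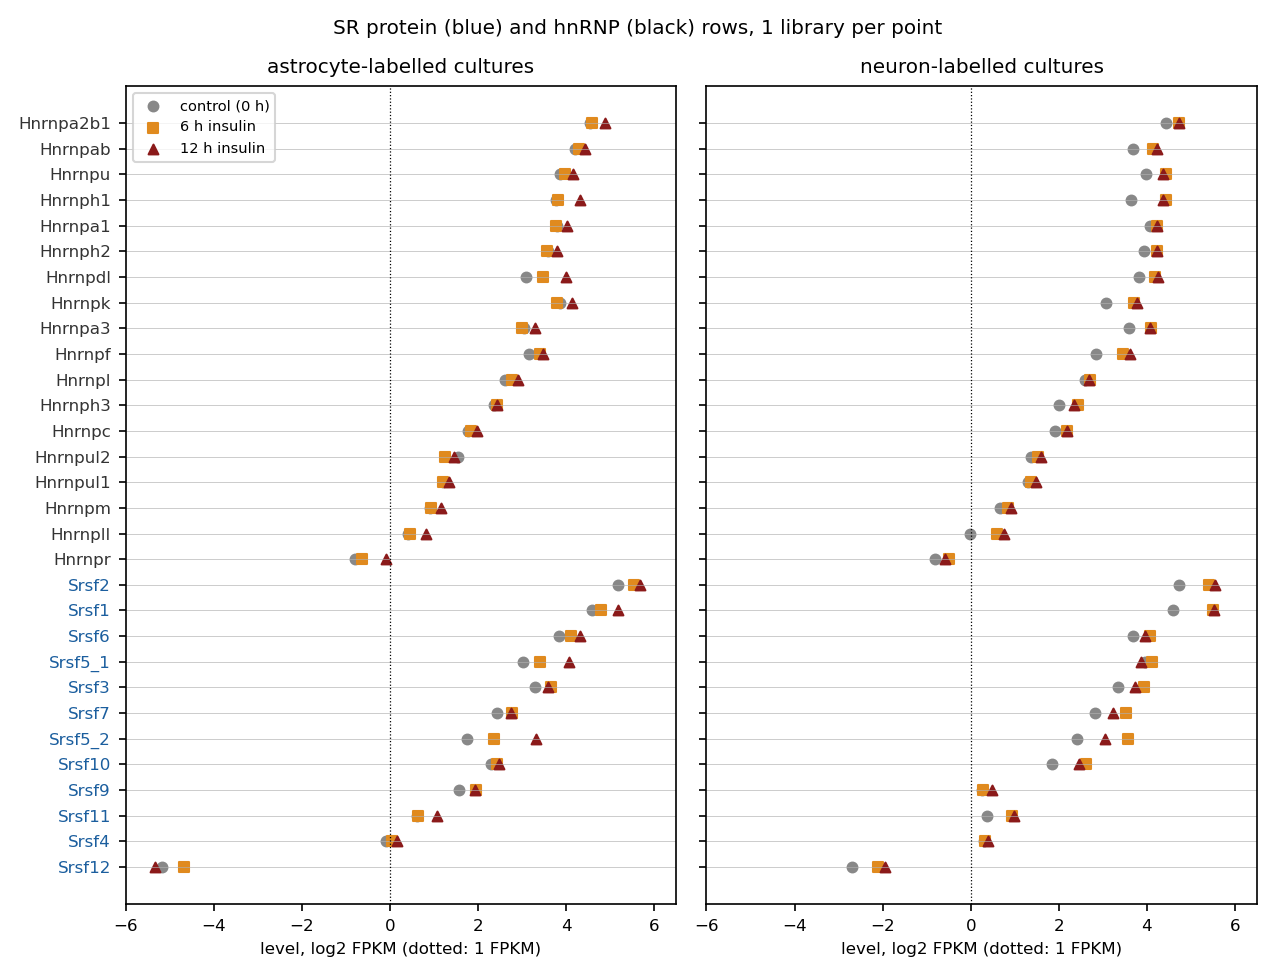
Levels of the 30 rows as log2 FPKM (x axis), 1 point per library, in astrocyte-labelled (left) and neuron-labelled (right) cultures; circles are the control at 0 h, squares 6 h and triangles 12 h of insulin. In neuron cultures the control lies left of both insulin libraries for nearly all rows, and Srsf12 and Hnrnpr stay left of the dotted line at 1 FPKM.

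The row Srsf5_2 had the largest insulin difference of the family at both times in astrocyte cultures and at 6 h in neuron cultures. At 12 h in neuron cultures the largest was that of Srsf1 (0.93). The row Srsf5_2 was at 3.38, 5.18 and 9.90 FPKM at 0 h, 6 h and 12 h in astrocyte cultures, which is 1.55 above control on the log2 scale (2.93-fold) at 12 h and 0.62 at 6 h. Each later astrocyte library was higher than the one before. Among 6221 rows compared at 12 h it ranked 10th from the top. In neuron cultures Srsf5_2 was at 5.35, 11.9 and 8.33 FPKM, with differences of 1.16 at 6 h and 0.64 at 12 h. The highest neuron library was thus the 6 h one, where the row ranked 68th of 6610. The row Srsf5_1 was at 8.17, 10.7 and 16.8 FPKM in astrocyte cultures, a difference of 1.04 (2.06-fold) at 12 h. In neuron cultures it was at 15.5, 17.3 and 14.6 FPKM, with differences of 0.15 and -0.09, so the 12 h library fell slightly below the control.

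The Srsf5 rows did not keep a fixed proportion. The level of Srsf5_2 divided by that of Srsf5_1 was 0.414, 0.484 and 0.588 at 0 h, 6 h and 12 h in astrocyte cultures and 0.345, 0.690 and 0.571 in neuron cultures. Both controls had a lower ratio than every insulin library of their culture. Summed over both rows, Srsf5 was at 11.6, 15.9 and 26.7 FPKM in astrocyte cultures and at 20.9, 29.2 and 22.9 FPKM in neuron cultures. The table appears to run in genome order: of 19871 consecutive pairs of rows found in RefSeq, 98.6% lie on the same chromosome of assembly GRCr8. All 13 named rows within 12 places of Srsf5_1 lie on the chromosome of Srsf5 in that assembly, among them Slc39a9 and Slc10a1. None of the 12 named rows around Srsf5_2, such as Rbm24 and Atxn1, does. RefSeq also lists 1 pseudogene named after Srsf5, and whether Srsf5_2 counts it was not tested. Which locus or copy Srsf5_2 counts was not settled, and the split of reads between the rows is uncertain.

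The sequences before the start sites of 3 genes are shown because these had large differences: Srsf5 and Hnrnpdl in astrocyte cultures at 12 h, and Srsf1 in neuron cultures. The Srsf5 window is that of the annotated Srsf5 gene and may not be the locus of the row Srsf5_2. The sequences come from RefSeq, assembly GRCr8, and run 5′ to 3′ from 250 bases before to 50 bases after the annotated start (the first of 2 entries for Hnrnpdl). Capitals mark matches, on either strand, to 6 motifs: CRE (TGACGTCA), E-box (CACGTG), ETS (CCGGAAGT), NF-Y (CCAAT), GC box (GGGCGG) and TATA box (TATAAA).
Srsf5, chr6:106336506-106336805, plus strand: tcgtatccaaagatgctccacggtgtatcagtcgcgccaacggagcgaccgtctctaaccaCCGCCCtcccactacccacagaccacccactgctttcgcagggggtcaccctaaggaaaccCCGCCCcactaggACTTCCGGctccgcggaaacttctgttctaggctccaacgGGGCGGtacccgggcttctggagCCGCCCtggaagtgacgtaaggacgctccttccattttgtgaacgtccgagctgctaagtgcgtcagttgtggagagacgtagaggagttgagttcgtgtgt
Hnrnpdl, chr14:9861466-9861765, plus strand: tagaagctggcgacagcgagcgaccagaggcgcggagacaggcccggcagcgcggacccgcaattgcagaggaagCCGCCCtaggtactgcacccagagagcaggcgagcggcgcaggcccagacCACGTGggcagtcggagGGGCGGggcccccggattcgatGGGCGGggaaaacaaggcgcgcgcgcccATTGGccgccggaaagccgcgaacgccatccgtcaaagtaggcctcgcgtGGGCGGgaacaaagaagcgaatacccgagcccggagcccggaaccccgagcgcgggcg
Srsf1, chr10:73336248-73336547, plus strand: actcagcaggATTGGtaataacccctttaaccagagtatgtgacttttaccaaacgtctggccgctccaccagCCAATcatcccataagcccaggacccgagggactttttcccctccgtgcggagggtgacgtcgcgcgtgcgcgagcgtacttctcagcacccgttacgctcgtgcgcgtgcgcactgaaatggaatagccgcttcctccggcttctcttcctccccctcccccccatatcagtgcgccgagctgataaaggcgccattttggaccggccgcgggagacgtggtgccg

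The Srsf5 window held 4 GC boxes and an ETS match, the Hnrnpdl window 4 GC boxes, an E-box and an NF-Y match, and the Srsf1 window 2 NF-Y matches. Promoter entries were found for 28 of the 29 symbols, and a gene was counted where any of its entries held the motif. The symbol without one was Hnrnpll. A GC box was present in 22 of these 28 (78.6%), against 36.0% of 27457 genes with a promoter entry. NF-Y matches were present in 20 of 28 (71.4%), against 39.6% of all genes, and were split unevenly: 16 of 17 hnRNP genes and 4 of 11 SR genes held one. An E-box was found in 5 of 28 (17.9%, against 7.08%), an ETS match in 3 (10.7%, against 4.20%), a TATA match in 6 (21.4%, against 15.3%) and a CRE in none (against 2.00%). The member promoters were also richer in G and C, with a median of 64.3% against 51.7% over all entries, and the part of this in the motif shares was not tested. A match here is a run of letters, not a bound site.

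In astrocyte cultures at 6 h, SR rows were higher than control while hnRNP rows were close to it. All 11 SR rows entered were above 0 (63.9% of all rows were), with a median difference of 0.35. Of them, 7 were above the upper quartile of all rows (0.26). The 17 hnRNP rows had a median of 0.05, below the all-row median of 0.09. Of these, 11 (64.7%) were above 0, near the share of all rows, and 2 were above the upper quartile. Relative to the all-row median, the hnRNP median was -0.04. No member reached 2-fold in either direction, where 1.05% of all 6206 rows were higher and 0.886% lower. At 1.5-fold, Srsf5_2 was the 1 member of 28 higher, a share near the background of 4.56%, and none was lower (background 2.96%). Beside Srsf5_2, the highest were Hnrnpdl (0.40), a relative of the AU-rich element binder HNRNPD, and Srsf5_1 (0.39). Srsf9, which like Srsf1 binds purine-rich enhancers, also differed by 0.39. It was at 2.95, 3.86 and 3.81 FPKM at 0 h, 6 h and 12 h in astrocyte cultures, and nearly flat at 1.20, 1.22 and 1.40 FPKM in neuron cultures. The lowest were Hnrnpul2 (-0.30), Hnrnpk (-0.07), a poly(C)-binding protein, and Hnrnpa3 (-0.04).

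At 12 h the hnRNP rows of astrocyte cultures were also above control. Of the 28 members, 27 were above 0 (67.0% of all rows were), 26 above the all-row median and 18 above the upper quartile of all rows. The member median was 0.29, against 0.10 for all 6221 rows, with 0.46 over SR rows and 0.27 over hnRNP rows. The rows at least 2-fold higher were Srsf5_1 and Srsf5_2, 2 of 28 where the background was 0.611%. Centred on the all-row median, or with the Srsf5 rows summed, 1 was counted, and without the rows with suffixes none was. None was 2-fold lower (background 0.916%). At 1.5-fold 4 of 28 were higher, with Hnrnpdl and Srsf1 added, where the background was 3.68%, and none was lower (2.35%). Hnrnpdl was at 8.46, 11.1 and 16.1 FPKM at 0 h, 6 h and 12 h in astrocyte cultures, a difference of 0.92 (1.90-fold) at 12 h. It ranked 52nd of the rows compared, and its highest library was the last. In neuron cultures it was at 14.1, 18.2 and 19.2 FPKM, with the control lowest. Hnrnph1, which binds G-rich runs, was at 13.8, 14.0 and 19.8 FPKM, so that the 12 h library (0.53) stood apart from the others. The lowest members at 12 h were Hnrnpul2 (-0.09), Hnrnph3 (0.07) and Hnrnpul1 (0.13).

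The step between 6 h and 12 h can be seen without the control. In astrocyte cultures 25 of 28 members were higher at 12 h than at 6 h (53.7% of all rows were). The member median was 0.21, against 0.02 for all 6260 rows. All 17 hnRNP rows were higher, from Hnrnph3 (0.01) to Hnrnpdl (0.53), and 8 of 11 SR rows. The exceptions were Srsf3 (-0.07), Srsf7 (-0.02) and Srsf9 (-0.02). Srsf3 and Srsf7 encode small SR proteins that also act in mRNA export. Srsf3 was at 9.86, 12.6 and 12.1 FPKM at 0 h, 6 h and 12 h in astrocyte cultures, and Srsf7 at 5.39, 6.86 and 6.78 FPKM. Their 12 h levels were thus close to those at 6 h. The largest step was that of Srsf5_2 (0.93), followed by Srsf5_1 (0.65). These 2 of 28 were at least 1.5-fold higher (background 1.37%), and none passed 2-fold (background 0.256% higher and 0.511% lower).

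**Figure D2:**
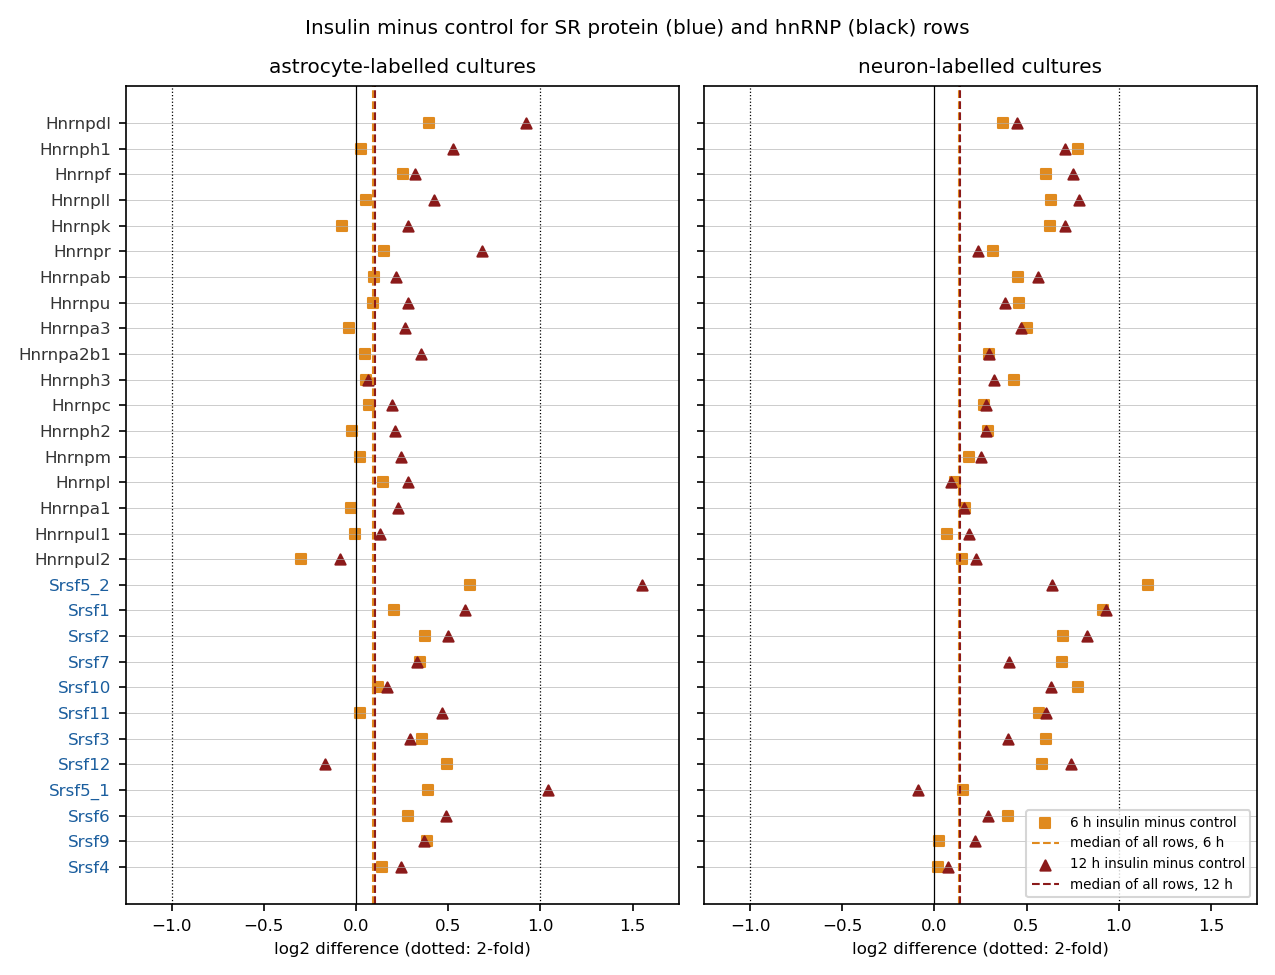
Log2 difference, insulin minus control, for each of the 30 rows (x axis); squares are 6 h, triangles 12 h, dashed lines the median of all rows at each time and dotted lines 2-fold. In astrocyte-labelled cultures (left) the hnRNP squares lie around 0 and the triangles to their right; in neuron-labelled cultures (right) both times lie to the right of 0 for nearly all rows, and Srsf5_1 at 12 h, at -0.09, is the exception. Srsf12 and Hnrnpr are drawn although below 1 FPKM.

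In neuron cultures both families were higher than control at 6 h, SR rows by more. All 28 members were above 0 (68.1% of all 6610 rows were), 24 above the all-row median and 17 above the upper quartile of all rows. The median was 0.44 over members, against 0.14 over all rows, with 0.61 over the 11 SR rows and 0.37 over the 17 hnRNP rows. Srsf5_2 was the 1 row of 28 at 2-fold higher (background 1.60%), and none was lower (background 1.29%). With the Srsf5 rows summed, none was higher. At 1.5-fold 10 of 28 were higher, where the background was 8.28%, and none was lower (2.80%). These 10 were Srsf5_2, Srsf1, Srsf2, Srsf3, Srsf7, Srsf10, Hnrnph1, Hnrnpf, Hnrnpk and Hnrnpll. Srsf1 differed by 0.91 (1.88-fold) at 6 h and 0.93 (1.91-fold) at 12 h. Srsf10, an SR protein that represses splicing after heat shock when dephosphorylated, was at 3.58, 6.13 and 5.54 FPKM at 0 h, 6 h and 12 h in neuron cultures, a difference of 0.78 at 6 h. In astrocyte cultures it was at 4.94, 5.37 and 5.56 FPKM, a narrower spread, with the control again lowest. Hnrnph1 was at 12.5, 21.5 and 20.5 FPKM in neuron cultures, a difference of 0.78 at 6 h and 0.71 at 12 h. Its close relative Hnrnpf was at 7.24, 11.0 and 12.2 FPKM in neuron cultures and at 8.89, 10.6 and 11.1 FPKM in astrocyte cultures.

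At 12 h the hnRNP rows of neuron cultures were near their 6 h levels, while the SR median was lower than at 6 h. The member median was 0.39, against 0.14 for all 6641 rows, with 0.40 over SR rows and 0.33 over hnRNP rows. Of the 28 members, 27 were above 0 (66.1% of all rows were), 25 above the all-row median and 15 above the upper quartile. None was 2-fold higher or lower (background 2.39% and 1.45%). At 1.5-fold 9 of 28 were higher (background 10.7%) and none was lower (background 4.17%). The highest were Srsf1 (0.93), Srsf2 (0.83) and Hnrnpll (0.78), a regulator of CD45 splicing in T cells. Hnrnpll was at 0.984, 1.52 and 1.69 FPKM at 0 h, 6 h and 12 h in neuron cultures and at 1.32, 1.38 and 1.77 FPKM in astrocyte cultures, with the control lowest in both. The lowest were Srsf5_1 (-0.09), Srsf4 (0.07) and Hnrnpl (0.09). Hnrnpl, which binds CA repeats, was at 6.07, 6.56 and 6.46 FPKM in neuron cultures and at 6.16, 6.83 and 7.50 FPKM in astrocyte cultures. Srsf4, a large SR protein, was at 1.24, 1.26 and 1.31 FPKM in neuron cultures and at 0.944, 1.04 and 1.12 FPKM in astrocyte cultures, so the neuron libraries were nearly level. Hnrnpk was at 8.40, 13.0 and 13.7 FPKM in neuron cultures and at 14.5, 13.8 and 17.7 FPKM in astrocyte cultures. Between 12 h and 6 h in neuron cultures the member median was 0.01, against -0.01 for all 6662 rows. Of the 28 members, 15 were above 0 (48.3% of all rows were). The median was -0.11 over SR rows, with 5 of 11 above 0, and 0.01 over hnRNP rows, with 10 of 17 above 0. No member passed 2-fold (background 0.555% higher and 0.510% lower). The lowest of these were Srsf5_2 (-0.52), Srsf7 (-0.29), Srsf5_1 (-0.24) and Srsf3 (-0.21), all SR rows, and the highest was Srsf9 (0.19). Srsf7 was at 7.08, 11.4 and 9.37 FPKM at 0 h, 6 h and 12 h, and Srsf3 at 10.1, 15.4 and 13.3 FPKM. For both genes the 6 h library was the highest of the neuron cultures.

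**Figure D3:**
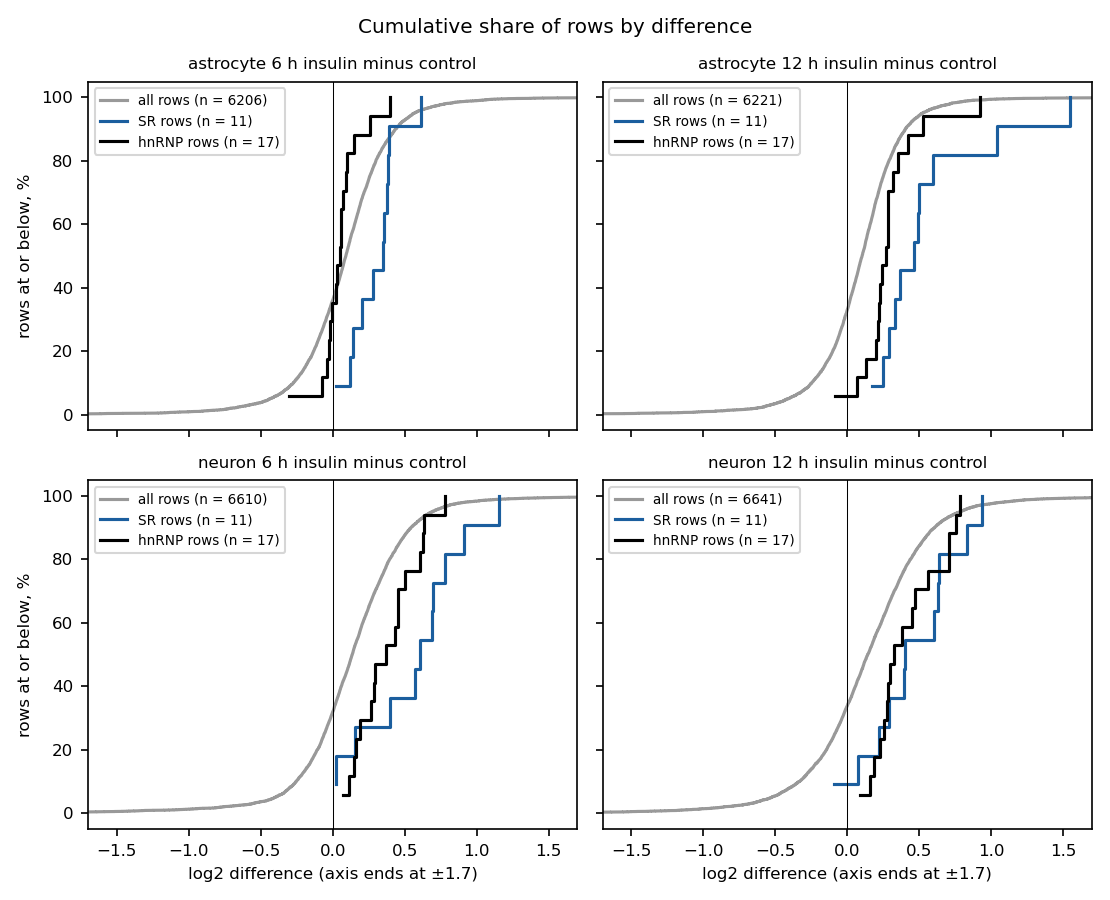
Cumulative share of rows (y axis, %) at or below each log2 difference (x axis) in the 4 insulin comparisons; grey is all rows entered, blue the 11 SR rows and black the 17 hnRNP rows. In astrocyte cultures at 6 h the hnRNP curve crosses that of all rows near 0 (median 0.05 against 0.09) while the SR curve lies to the right, and in the other 3 panels both family curves lie mostly to the right of the grey curve.

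**Figure D4:**
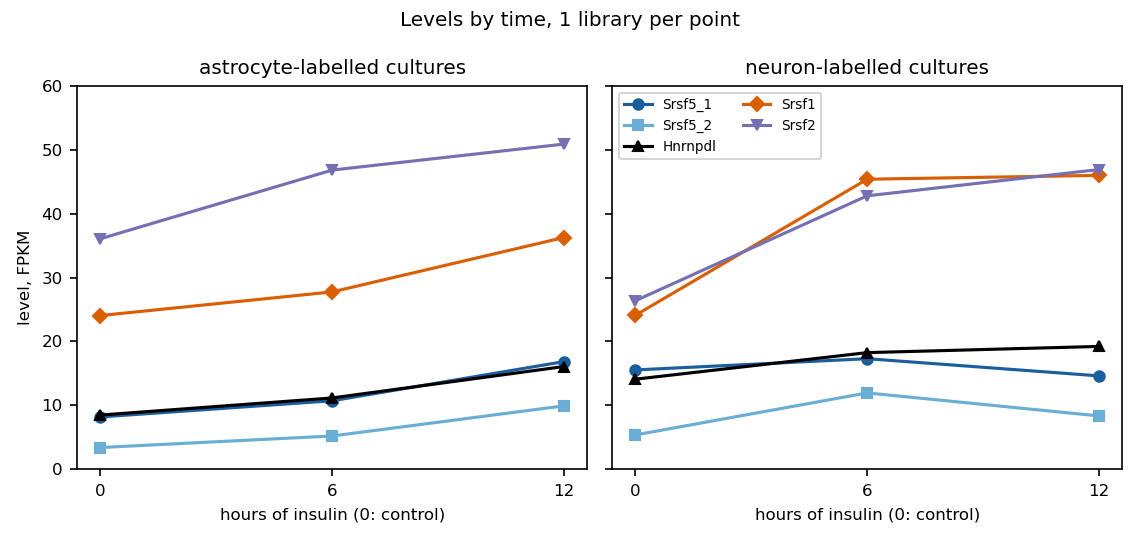
Levels in FPKM (y axis) of 5 rows by hours of insulin (x axis; 0 is the control), 1 library per point, in astrocyte-labelled (left) and neuron-labelled (right) cultures. Srsf5_2 is highest at 12 h (9.90 FPKM) in astrocyte cultures and at 6 h (11.9 FPKM) in neuron cultures, and Srsf1 reaches 45.4 and 46.0 FPKM in the neuron insulin libraries.

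The remaining members had smaller or similar differences. Among SR proteins, Srsf6, another enhancer-binding member, was at 14.3, 17.4 and 20.0 FPKM at 0 h, 6 h and 12 h in astrocyte cultures and 12.8, 16.9 and 15.6 FPKM in neuron cultures. Srsf11 was at 1.52, 1.54 and 2.10 FPKM in astrocyte cultures and 1.30, 1.92 and 1.97 FPKM in neuron cultures, so the 12 h library stood apart in astrocyte cultures and the control in neuron cultures. Among hnRNPs, Hnrnpu, a nuclear scaffold protein, was at 14.7, 15.7 and 17.8 FPKM in astrocyte cultures and 15.8, 21.7 and 20.6 FPKM in neuron cultures. Hnrnpa1, a shuttling repressor that opposes Srsf1 at many exons, was at 14.0, 13.7 and 16.3 FPKM in astrocyte cultures and 16.8, 18.9 and 18.8 FPKM in neuron cultures. Hnrnpa3, of the same subfamily, was at 8.20, 8.00 and 9.87 FPKM in astrocyte cultures and 12.1, 17.2 and 16.8 FPKM in neuron cultures. The neuron controls of both were above the astrocyte controls.

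Hnrnpab, which binds AU-rich RNA, was at 18.4, 19.7 and 21.4 FPKM at 0 h, 6 h and 12 h in astrocyte cultures and 12.8, 17.5 and 18.9 FPKM in neuron cultures. Hnrnph2, a close relative of Hnrnph1, was at 12.1, 11.9 and 14.0 FPKM in astrocyte cultures and 15.4, 18.8 and 18.7 FPKM in neuron cultures. Hnrnph3, a shorter relative, was at 5.19, 5.39 and 5.43 FPKM in astrocyte cultures and 4.04, 5.45 and 5.06 FPKM in neuron cultures. Of the pair, Hnrnph3 differed little between its astrocyte libraries. Hnrnpc, which forms the core particle on nascent RNA and binds runs of U, was at 3.43, 3.61 and 3.94 FPKM in astrocyte cultures and 3.76, 4.53 and 4.56 FPKM in neuron cultures. Hnrnpm was at 1.89, 1.92 and 2.23 FPKM in astrocyte cultures and 1.57, 1.79 and 1.88 FPKM in neuron cultures. Hnrnpul1 was at 2.32, 2.31 and 2.54 FPKM in astrocyte cultures and 2.45, 2.57 and 2.79 FPKM in neuron cultures. In neuron cultures the control was the lowest library for each of these genes, whereas in astrocyte cultures Hnrnpa1, Hnrnpa3, Hnrnph2 and Hnrnpul1 were lowest at 6 h. Hnrnpr stayed between 0.570 and 0.935 FPKM.

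Between the astrocyte and neuron controls the families differed little beside other genes. Of the 28 members, 1 was at least 2-fold higher in the astrocyte control, where the background was 18.7%, and none 2-fold lower, where it was 21.9%. At 1.5-fold 2 were higher (background 27.2%) and 3 lower (background 32.3%). The quartiles of the difference were -0.29 and 0.31 over members, against -0.85 and 0.68 over all 7146 rows. The row above 2-fold was Srsf9, at 2.95 FPKM in the astrocyte control, against 1.20 FPKM in the neuron control (1.30 on the log2 scale), and on a log2(FPKM + 1) scale it was not 2-fold higher. Hnrnpk followed, at 14.5 FPKM in the astrocyte control, against 8.40 FPKM in the neuron control (0.79). The lowest were Srsf5_1 (-0.93), Hnrnpdl (-0.73) and Srsf5_2 (-0.66). In astrocyte cultures at 12 h the differences from control were 1.04 for Srsf5_1, 0.92 for Hnrnpdl and 1.55 for Srsf5_2. Both contrasts share the astrocyte control library, so the values are not independent.

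Other genes of the splicing machinery were taken from 6 lists with 142 genes, of which 141 were matched. In astrocyte cultures 88 of their rows entered at 6 h and 95 at 12 h, and none was 2-fold higher or lower. Among all rows 1.05% were higher and 0.886% lower at 6 h, and 0.611% and 0.916% at 12 h. A count of 0 is near these shares. In neuron cultures 88 entered at each time, of which 12 were below 1 FPKM in the control. There 1 was 2-fold higher at 6 h (1.60% of all rows were) and 2 at 12 h (2.39% of all rows), shares near or below the background. None was 2-fold lower, where 1.29% of all rows were at 6 h and 1.45% at 12 h. Syncrip, also named hnRNP Q, was at 0.625, 1.30 and 1.27 FPKM at 0 h, 6 h and 12 h in neuron cultures, with differences of 1.06 and 1.02. Rbm3, a cold-inducible RNA-binding protein, was at 17.1, 33.7 and 37.8 FPKM there, with differences of 0.98 and 1.14. In astrocyte cultures Rbm3 was at 51.5, 46.7 and 63.1 FPKM, so its 6 h library was below the control. Syncrip passed the minimum in neuron cultures through the insulin libraries only.

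Of 9 kinases of SR proteins, 6 entered in astrocyte cultures at 12 h, and 3 of these did so only through the insulin library, since they were below 1 FPKM in the control. Their median of 0.73 therefore depends on the minimum and is not compared with other lists. Clk1, a nuclear kinase that phosphorylates SR tails, was at 2.34, 2.81 and 4.25 FPKM at 0 h, 6 h and 12 h in astrocyte cultures, a difference of 0.86 at 12 h. Clk2 was at 0.662, 0.953 and 1.28 FPKM there (0.95 at 12 h). Clk2 was 1 of the 3 below 1 FPKM in the control. In neuron cultures the kinase median was 0.35 at 6 h and 0.34 at 12 h, over 5 members each. At each time 1 of the 5 was below 1 FPKM in the control and entered only through the insulin library. It was not the same kinase at both times, so these 2 medians are not compared. SR-related proteins had medians of 0.01 and 0.30 at 6 h and 12 h in astrocyte cultures and of 0.24 and 0.27 in neuron cultures. Among them Tra2b, a partner of SR proteins at enhancers, was at 2.09, 3.44 and 3.39 FPKM in neuron cultures (0.72 at 6 h). Arglu1, another of that list, was at 1.64, 2.02 and 2.88 FPKM in astrocyte cultures (0.81 at 12 h).

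The hnRNP proteins with other symbols had medians of 0.09 and 0.32 in astrocyte cultures and 0.19 and 0.34 in neuron cultures, at 6 h and 12 h. Other splicing regulators had 0.06 and 0.29 in astrocyte cultures and 0.32 and 0.24 in neuron cultures. Core spliceosome genes had 0.15 and 0.21 in astrocyte cultures, over 38 of 50 rows, and 0.22 and 0.27 in neuron cultures, over 35. Of these, Snrnp70, a protein of the U1 particle, was at 2.57, 3.44 and 4.87 FPKM in astrocyte cultures (0.92 at 12 h). In neuron cultures it was at 3.51, 2.78 and 2.95 FPKM, below control at both times. Factors of nonsense-mediated decay and the exon junction had medians of 0.17 and 0.27 in astrocyte cultures and 0.32 and 0.30 in neuron cultures. Of their rows in astrocyte cultures, 3 of 8 at 6 h and 4 of 9 at 12 h were below 1 FPKM in the control. For the hnRNP proteins with other symbols these were 2 of 10 at 12 h in astrocyte cultures and 2 of 8 at each time in neuron cultures. Such rows entered only through the insulin library, so these medians depend on the minimum. At 6 h in astrocyte cultures the medians of the hnRNP rows and of the SR-related proteins were below the all-row median. The median of the other regulators was at -0.03 relative to it, with 7 of 14 rows above it. That of the hnRNP proteins with other symbols was at -0.003, so nearly equal to it, with 4 of 8 rows above.

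**Figure D5:**
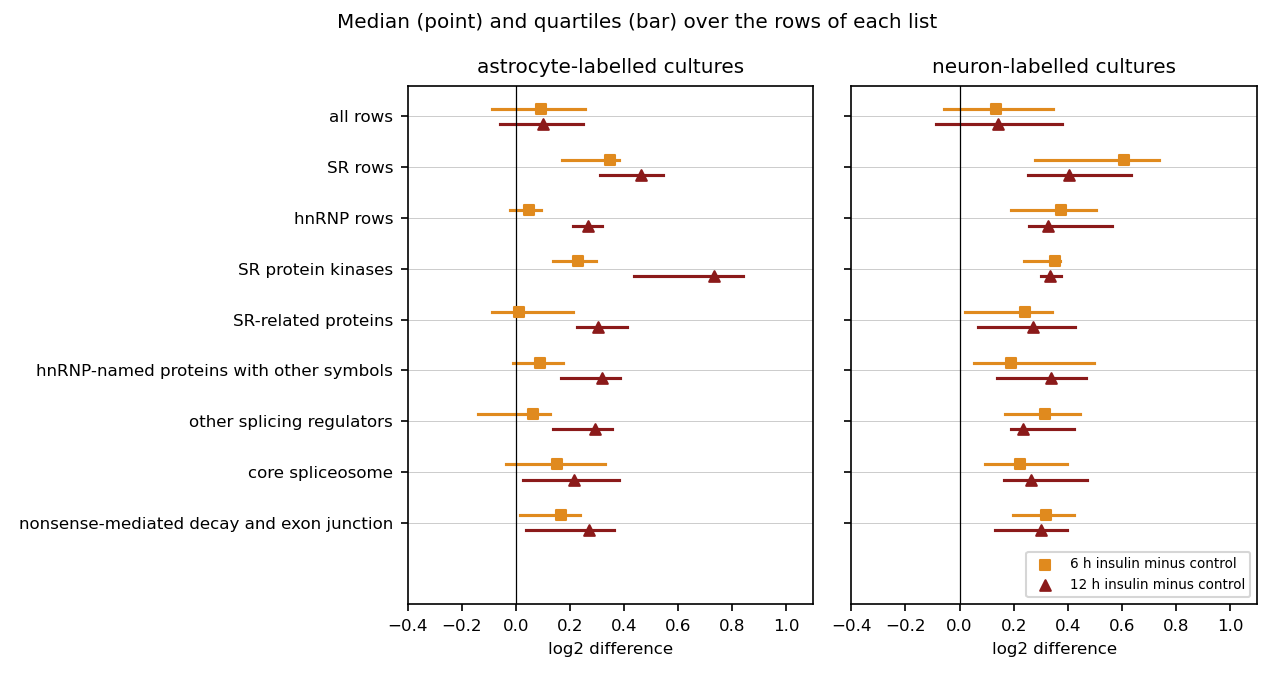
Median (point) and quartiles (bar) of the log2 difference, insulin minus control (x axis), over the rows entered of each list, at 6 h (squares) and 12 h (triangles). SR rows have medians of 0.35 and 0.46 in astrocyte-labelled cultures (left) and 0.61 and 0.40 in neuron-labelled cultures (right), against 0.09 to 0.14 for all rows. The kinase median at 12 h in astrocyte-labelled cultures includes 3 of 6 rows that were below 1 FPKM in the control. For the nonsense-mediated decay list there these were 4 of 9.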

How the data were processed

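The deposited table holds log2 FPKM, quantile-normalised by the authors over all 6 libraries; unit, log and quantile step come from the deposited table's name, and the upper deciles of the columns differed by 0.0002 at most. Base 2 was settled from the values: Rn45s, at 13.67, would as a natural log exceed the 1000000 fragments of the FPKM unit. Tools listed in the submitters' processing notes are Partek 6.5 and bcl2fastq 2.17.1.14, with build Rnor 6.0; an aligner is not given in the sources used here. Depth is unknown.

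Columns were matched to samples by description, and groups came from the titles; 0 per-sample columns were unused. For 2 repeated symbols the row of higher mean was kept. RefSeq (GRCr8) held 19872 of the symbols and all 29 of the family; it served for names, neighbours and promoters. Differences were computed with Python 3.11.15, numpy 2.4.6 and pandas 2.3.3, checked on simulated data. The planned scale for log values was the deposited one, without pseudocount. Alternatives were no minimum, 5 FPKM, log2(FPKM + 1), centring, 1.5-fold, summed rows, no suffixed rows and a renewed quantile step.

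All members may be named; of other splicing genes, those past 2-fold and up to 2 per list. The members and lists were chosen with earlier results of these data known.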

Additional observations from a re-analysis of the deposited data

Results flagged for a closer look

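Hnrnpul2, a nuclear hnRNP of the U family, was the 1 member that entered all insulin comparisons and lay on opposite sides of 0 in the 2 cultures at both times. In astrocyte cultures it differed by -0.30 at 6 h and -0.09 at 12 h, and in neuron cultures by 0.15 and 0.23. The neuron values are about the size of the all-row median of 0.14. Centred on the all-row median they were 0.014 and 0.085, against -0.39 and -0.19 in astrocyte cultures, and with a renewed quantile step 0.033 and 0.11. Its levels were 2.91, 2.37 and 2.74 FPKM at 0 h (control), 6 h and 12 h in astrocyte cultures and 2.59, 2.88 and 3.04 FPKM in neuron cultures. The difference between cultures was not tested, since each group is 1 library.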

How the results depend on the processing

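Of 161 recomputed counts and medians, 138 stayed close (a count within 1.5 times, a median within 0.1 on the log2 scale) and 23 moved. Sign changes were counted only for member differences past 2-fold, all of Srsf5 rows, and were 0. Centring or log2(FPKM + 1) could not reverse differences of that size, so this 0 carries little weight. Smaller differences did change sign on centring, as in neuron cultures at 6 h for Hnrnpl (0.11 to -0.023) and Hnrnpul1 (0.070 to -0.066). Counts that were 0 and stayed 0 are among the 138. At 1.5-fold, the members higher were 1 and 4 (6 h and 12 h, astrocyte), 10 and 9 (neuron) and 2 (astrocyte, 12 h against 6 h, where 1.37% of all rows were); between the controls 2 were higher (27.2% of all rows) and 3 lower (32.3%). The 2 members higher in astrocyte cultures at 12 h became 1 with log2(FPKM + 1), centring, summed rows or the renewed quantile step, and 0 without suffixed rows. The 1 member higher in neuron cultures at 6 h became 0 with summed or without suffixed rows. Centring took the medians to 0.0037 and 0.18 (astrocyte, 6 h and 12 h), 0.31 and 0.25 (neuron, 6 h and 12 h) and 0.17 (controls). The renewed quantile step, chosen after seeing the data, gave 0.33 and 0.27 in neuron cultures, with 25 of 28 members above 0 at each time; in astrocyte cultures 16 (6 h) and 26 (12 h) of 28 were above 0, and after centring 15 and 26. Between the controls, Srsf9 was no longer counted at 5 FPKM or with log2(FPKM + 1) (0 higher), and 1 member was lower with no minimum. By construction, summing merges the Srsf5 rows and centring removes the all-row shift. No paired analysis was possible because each group is 1 library; for the same reason none could be left out. Depth is unknown, so rows below 1 FPKM, such as Srsf12, have no stated precision.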

Other observations

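The row Hnrpd carries the older symbol of Hnrnpd, which encodes the AU-rich element binder AUF1, and fell outside the rule for the family. It was chosen after its values were seen. Its level was 0.682, 0.842 and 1.06 FPKM at 0 h (control), 6 h and 12 h in astrocyte cultures and 0.938, 1.45 and 1.52 FPKM in neuron cultures. Each control was the lowest library of its culture. At 6 h in astrocyte cultures both libraries were below 1 FPKM, so that difference did not enter. The others entered only through the insulin library, with differences of 0.64 at 12 h in astrocyte cultures and 0.62 and 0.70 at 6 h and 12 h in neuron cultures. Ptbp1 and Ptbp2, polypyrimidine tract-binding repressors of which Ptbp2 is known from neurons, also named here after their values were seen, differed between the controls. Ptbp1 was at 14.1 FPKM in the astrocyte control, against 3.47 FPKM in the neuron control. Ptbp2 was at 0.269 FPKM in the astrocyte control, against 1.29 FPKM in the neuron control. Over the hnRNP proteins with other symbols 3 of 9 were 2-fold higher and 4 of 9 lower between the astrocyte and neuron controls, against 18.7% and 21.9% of all rows.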
